A study of Mus musculus with 67 samples.

Results

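The Cdx family loci were covered by 8 of the 111638 accessible elements in the deposited table, namely every element whose nearest transcription start site (TSS) was annotated to Cdx1, Cdx2 or Cdx4. There were 3 for Cdx1, 3 for Cdx2 and 2 for Cdx4. Each is called here by its gene and the distance in bp of its center from that TSS, so that Cdx2 -2154 lies upstream of Cdx2 and Cdx2 +6976 lies beyond its TSS. Accessibility was assayed by CaTS-ATAC in 67 samples of neuromesodermal progenitors (NMPs) and ventral neural progenitors (NPs) differentiated from the mouse embryonic stem (ES) cell line HM1. CaTS-ATAC is an ATAC-seq method for fixed cells in which a transposase tags open chromatin and cells are sorted by intracellular stains of transcription factors, so each library comes from a sorted population in bulk. In bulk, fewer cells with an open element and less opening per cell cannot be told apart.

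All groups are wild-type HM1 cells and shared the same first 3 days in culture, with bFGF and LGK, followed by bFGF, the Wnt pathway agonist CHIR99021 and the inhibitors SB-431542 and DMH1. NMPs were collected at day 3, with 0 nM SAG, in 3 samples. From day 3 the cells received 100 nM retinoic acid (RA) and SAG, an agonist of Sonic hedgehog signaling, and NPs were sorted at days 4, 5 and 6. The p0-1 NPs came from 0 and 10 nM SAG, p2 from 10 and 100 nM, and pMN and p3 from 100 and 500 nM, which makes 24 NP conditions and 64 NP samples. The change from NMP to NP therefore coincides with the change of medium and with the added days, and these cannot be told apart. Replicates were independent differentiations by the study's methods, all of a single cell line. Outside the SAG comparisons, NP groups pooled both SAG concentrations, so samples of the same replicate number may share a differentiation. The deviations of same-number samples from their condition means were correlated within days 4, 5 and 6 (medians of 0.38, 0.32 and 0.40). The main fits had no block and treated these samples, and types sorted from the same dish, as independent. The p values therefore measure the spread between samples of that line, not between differentiations alone.

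The Cdx genes encode homeodomain transcription factors of the ParaHox group, the sister group of the Hox genes that also holds Gsx and Pdx1. They act in the tailbud and posterior embryo, where they are targets of Wnt, FGF and retinoic acid signals and activate Hox genes of the trunk, and their joint loss truncates the body axis. Cdx2 is also known for its roles in trophectoderm and, with Cdx1, in the intestine. Cdx4 lies on the X chromosome. Accessibility is not transcription, and no RNA is analysed here.

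Of the 8 elements 3 covered a TSS, 1 for each gene, and the other 5 were distal. Coordinates are of mm10. At Cdx1, Cdx1 +581 (chr18:61034480-61036757) spanned the start and was annotated to intron 1, Cdx1 -3766 (chr18:61039526-61040404) was intergenic and upstream, and Cdx1 +8009 (chr18:61027766-61028615) was in intron 1.

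At Cdx2, Cdx2 +1279 (chr5:147304301-147307639) spanned the start and was annotated to intron 1, and Cdx2 -2154 (chr5:147309209-147309597) was intergenic and upstream. At Cdx4, Cdx4 +312 (chrX:103321022-103322399) covered the start and the first exon and Cdx4 +5030 (chrX:103325783-103327073) was in intron 1. Cdx2 +6976 (chr5:147299055-147301491) overlapped the 3′ end of Cdx2 and ran beyond it. Cdx2 -2154 was the narrowest, with 389 bp, and Cdx2 +1279 the widest, with 3339 bp, against a median of 883 bp over all elements.

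Sequences are shown for the 3 distal elements on which the results below turn most and for the promoters of Cdx2 and Cdx4. The distal ones are the central 300 bp of Cdx2 -2154 (chr5:147309254-147309553, minus strand), Cdx2 +6976 (chr5:147300124-147300423, minus strand) and Cdx4 +5030 (chrX:103326279-103326578, plus strand), read from the GRCm38 reference, which is the assembly of mm10. The promoters are the 250 bases before the RefSeq start (GRCm38.p6) of Cdx2 (chr5:147307250-147307499, minus strand) and Cdx4 (chrX:103321148-103321397, plus strand), both inside the element that covers the TSS. All run 5′ to 3′ along the gene, and capitals mark exact matches, on either strand, to the motifs listed after them.
Cdx2 -2154: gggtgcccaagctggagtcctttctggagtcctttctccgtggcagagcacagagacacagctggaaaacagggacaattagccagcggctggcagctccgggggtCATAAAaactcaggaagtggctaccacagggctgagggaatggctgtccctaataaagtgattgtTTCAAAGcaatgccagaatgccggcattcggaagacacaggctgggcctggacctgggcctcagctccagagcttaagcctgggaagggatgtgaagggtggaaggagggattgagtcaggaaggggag
Cdx2 +6976: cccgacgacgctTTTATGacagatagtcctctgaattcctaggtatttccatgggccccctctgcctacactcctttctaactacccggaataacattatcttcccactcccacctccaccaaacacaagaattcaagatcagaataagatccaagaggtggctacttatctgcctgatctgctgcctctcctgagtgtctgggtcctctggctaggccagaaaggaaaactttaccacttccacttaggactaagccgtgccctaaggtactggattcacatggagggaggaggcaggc
Cdx4 +5030: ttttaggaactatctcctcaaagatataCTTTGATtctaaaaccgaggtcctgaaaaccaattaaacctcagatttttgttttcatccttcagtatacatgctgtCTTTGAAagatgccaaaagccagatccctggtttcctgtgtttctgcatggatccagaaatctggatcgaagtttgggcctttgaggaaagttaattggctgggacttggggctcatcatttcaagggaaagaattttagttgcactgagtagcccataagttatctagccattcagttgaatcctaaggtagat
Cdx2 promoter: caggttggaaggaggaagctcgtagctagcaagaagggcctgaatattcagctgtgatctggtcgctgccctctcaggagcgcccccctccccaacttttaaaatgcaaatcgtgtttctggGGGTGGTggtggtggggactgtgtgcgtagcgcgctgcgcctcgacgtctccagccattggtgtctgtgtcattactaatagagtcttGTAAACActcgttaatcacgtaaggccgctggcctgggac
Cdx4 promoter: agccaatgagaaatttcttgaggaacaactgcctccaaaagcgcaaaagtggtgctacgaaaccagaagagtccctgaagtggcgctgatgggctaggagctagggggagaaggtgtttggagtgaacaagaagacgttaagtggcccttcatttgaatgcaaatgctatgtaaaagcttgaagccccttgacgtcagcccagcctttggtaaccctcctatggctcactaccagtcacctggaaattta
The motifs searched were CDX (TTTATG), TCF/LEF (CTTTGAA or CTTTGAT), the RA receptor motif (AGGTCA, alone or followed 5 bases later by AGGTCA), T-box (AGGTGTG), SOX (ACAATGG), GLI (ACCACCC) and FOX (TGTTTAC).

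Matches in the central 300 bp were few. CDX was found in 2 of the 8 elements, Cdx2 -2154 and Cdx2 +6976, and in 15.0% of all elements. TCF/LEF was found in 2 as well, once in Cdx2 -2154 and at 2 places in Cdx4 +5030, against 12.4% of all elements. Cdx1 +581 held the single AGGTCA, which 19.8% of elements had, and Cdx4 +312 held the single SOX match, which 7.43% had. The AGGTCA repeat, T-box, GLI and FOX had no match in these 8 windows, and 0.0591%, 4.89%, 4.27% and 4.96% of all elements had one. The Cdx2 promoter held 1 GLI and 1 FOX match, found in 3.92% and 3.17% of the 32851 promoter windows of the same length, and the Cdx4 promoter held none of the motifs. A match is only a run of letters and says nothing of binding. The TSS elements were rich in CpG, with an observed over expected ratio of 0.579 for Cdx1 +581, 0.709 for Cdx2 +1279 and 0.453 for Cdx4 +312, against a median of 0.224 over all elements. Cdx2 +6976 also had a high ratio, 0.441, whereas the ratio of the other distal elements was between 0.142 and 0.246.

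**Figure D1:**
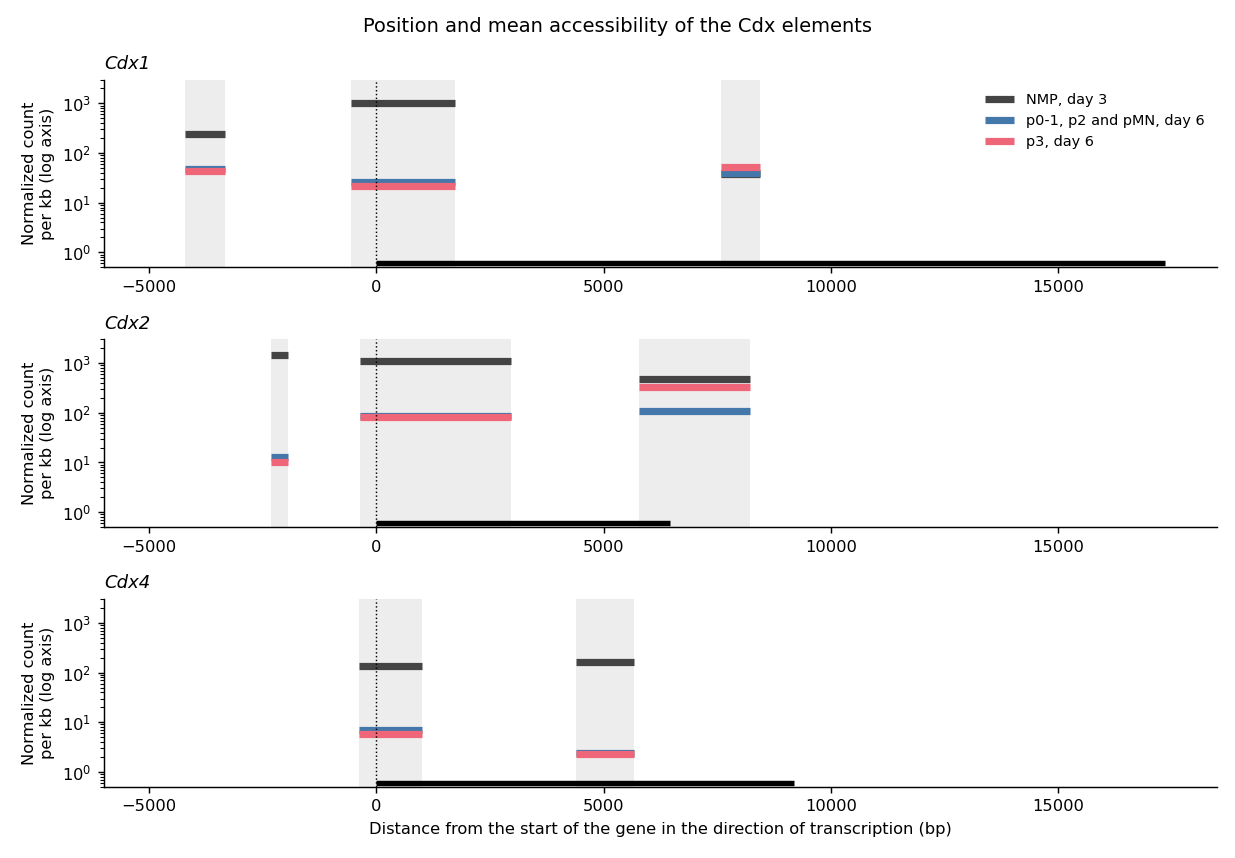
Position of the Cdx elements (gray bands, to scale) by distance from the start of the gene in bp, with the gene body as a black bar. Colored lines give the mean normalized count per kb of element width on a log axis, in 3 NMP samples, 15 samples of p0-1, p2 and pMN at day 6 and 4 samples of p3 at day 6. In NMPs 7 of the 8 elements lie above 100 counts per kb. At day 6 the p3 line stands clearly apart from that of the other NPs at Cdx2 +6976.

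The libraries held between 9298160 and 29985325 reads in elements, with a median of 20254011. Values are normalized counts, that is reads divided by the size factor of the library, recovered from the deposited log2 values. The sorted populations were checked at the elements nearest the TSS of marker genes. The elements at T and Nkx1-2, which mark NMPs, had mean normalized counts of 1175 and 1492 in NMPs, of 219 to 276 and 382 to 530 in the 4 NP types at day 4, and of 99.0 to 149 and 175 to 258 at day 6, so they fell together with most Cdx elements. The Olig2 element was highest in pMN at every day (2325 at day 6, against 408 to 1005 in the other NPs), the Foxa2 element in p3 among NPs (1662 at day 6, against 261 to 306), the Nkx6-1 element was lowest in p0-1 among NPs (1431 at day 6, against 2431 to 2586) and the Pax6 element was lowest in p3 among NPs (1696 at day 6, against 3208 to 3889, and 1690.4 in NMPs). The Foxa2 element was also open in NMPs (mean 1494, against 1298 in p3 at day 4). Nkx2-2, the other p3 marker sought, had no element with values. No marker element checked was at 0 in any group. How far remaining NMPs within the sorted NPs contribute to the values was not tested.

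In NMPs the elements ranged from some of the most accessible in the table to one of middling level. By normalized count Cdx2 +1279 was above 99.9% of all elements, Cdx1 +581 above 99.2% and Cdx2 +6976 above 95.6%. Counts per kb of element width correct for width alone. The study lists HM1 as male, and the copy number of the X-linked Cdx4 elements was not corrected for. On this scale Cdx2 -2154 was highest with a mean of 1433, followed by Cdx2 +1279 with 1104 and Cdx1 +581 with 1008. Cdx2 +6976 had 485 per kb, Cdx1 -3766 had 245, Cdx4 +5030 had 164 and Cdx4 +312 had 136. Cdx1 +8009, with 37.9 per kb, was near the middle of all elements, above 51.8% of them.

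**Figure D2:**
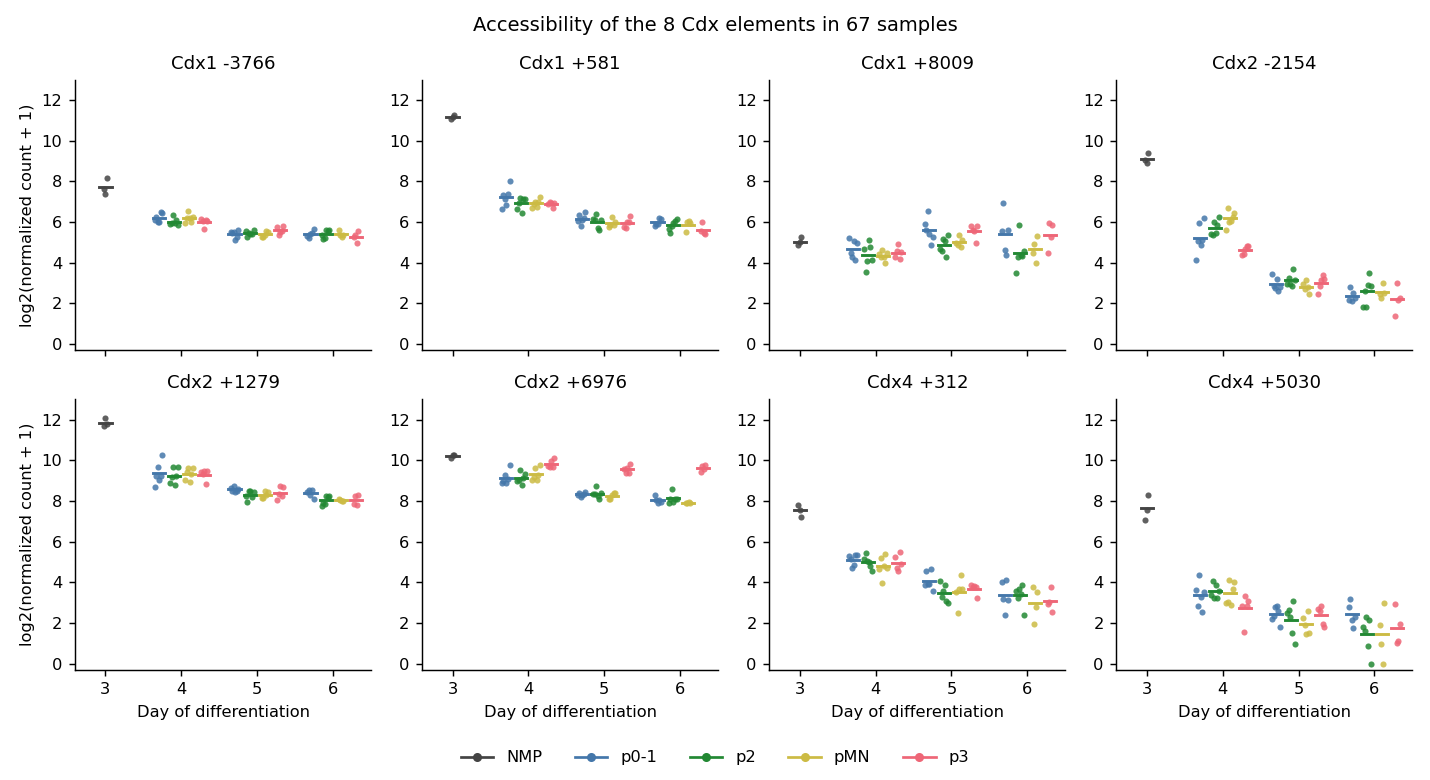
Accessibility of each Cdx element as log2(normalized count + 1), by day of differentiation, in 67 samples. Points are samples colored by cell type (pooled over SAG concentrations) and horizontal lines are means of the log2 values. The 3 NMP samples lie above every NP sample for 7 of the 8 elements. Against the day 4 samples of a single NP type this held for 28.1% to 35.3% of all elements. The share over all NP samples was not computed. At days 5 and 6 every p3 sample lies above every other NP sample at Cdx2 +6976.

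The first comparison was between NMPs and the NP types at day 4, 1 day after RA was added. The 4-fold rule asked for a more than 4-fold change of normalized counts at an adjusted p below 0.01. By this rule 5 of the 8 Cdx elements fell in each of the 4 comparisons, which share the NMP samples. Of all elements 8.85% fell by the same rule between NMPs and p0-1, 9.72% in p2, 10.1% in pMN and 9.8% in p3. No Cdx element rose, while 18.7%, 22.4%, 22.5% and 20% of all elements did. The median log2 fold change of the 8 elements was between -2.60 and -2.40, and that of all elements between 0.06 and 0.18. Every NP sample at day 4 was below every NMP sample for all but Cdx1 +8009. Over all elements this held for 28.1% in p0-1, 35.3% in p2, 34.9% in pMN and 33.1% in p3.

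At the TSS of Cdx1 the NMP samples had 2171, 2267 and 2449 normalized counts at Cdx1 +581. The 23 NP samples at day 4 had from 85.2 to 258, with a median of 123. This was the largest loss at a TSS, with log2 fold changes from -3.87 in p0-1 to -4.28 in p3 (limma on the deposited log2 values, difference -3.84 with an SE of 0.233 and adjusted p = 1.1e-08 for p0-1, and -4.15 with an SE of 0.125 and adjusted p = 9.2e-13 for p3). Cdx1 -3766, upstream of the same gene, had 163, 195 and 289 in NMPs and from 50.0 to 92.1 at day 4. It fell by less than 4-fold, with log2 fold changes from -1.74 to -1.53 (adjusted p at most 3.2e-05 by limma). Cdx1 +8009, in intron 1, had 27.9, 31.0 and 37.7 in NMPs and from 10.6 to 36.0 at day 4, and its log2 fold changes, from -0.69 to -0.30, did not pass (adjusted p between 0.013 and 0.34 by limma).

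At Cdx2 the element upstream of the gene lost most. Cdx2 -2154 had 471, 532 and 670 in NMPs and from 16.7 to 104 at day 4, a log2 fold change of -2.90 in pMN (difference -2.74, SE 0.182), -3.36 in p2, -3.74 in p0-1 and -4.47 in p3 (difference -3.98, SE 0.176), with adjusted p values of at most 2.1e-07 by limma. Cdx2 +1279, over the TSS, had 3259, 3541 and 4257 in NMPs and from 418 to 1243 at day 4. Its log2 fold changes, from -2.58 to -2.39, were close to each other in the 4 NP types. Cdx2 +6976, at the 3′ end, changed least. It had 1098, 1205 and 1242 in NMPs, and at day 4 from 439 to 866 in p0-1, p2 and pMN and from 803 to 1093 in p3. Its log2 fold change was -1.03 in p0-1 and -1.06 in p2, where it passed a 2-fold limit at the same p, and -0.87 in pMN and -0.38 in p3, where it did not (adjusted p = 1.2e-05 and 0.011 by limma). Without replicate 2 in both groups the p0-1 value became -0.93 with an adjusted p of 0.017.

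Both Cdx4 elements fell. Cdx4 +312, over the TSS, had 148, 190.2 and 224 in NMPs and from 14.7 to 44.5 at day 4, with log2 fold changes from -2.71 to -2.42. Cdx4 +5030, in intron 1, had 132, 190.2 and 314 in NMPs, the widest spread of the 8 elements relative to its mean, and from 1.90 to 19.6 at day 4. Its log2 fold changes, from -4.90 in p3 to -4.14 in p2 (difference -3.72 with an SE of 0.270 in p3), were the largest at Cdx4, with adjusted p values of at most 1.7e-07 by limma. Leaving out any single NMP sample, or any replicate number in both groups, left these 5 elements past the 4-fold rule in each of the 4 comparisons.

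With the threshold lowered to a 2-fold change, 7 of the 8 elements fell in p0-1 and p2 and 6 in pMN and p3, against 20.6%, 22.7%, 22.9% and 22% of all elements. The elements that missed were Cdx1 +8009 in all 4 comparisons and Cdx2 +6976 in pMN and p3. When each sample was centered on the median of all elements, the log2 fold changes of the 8 elements moved by between -0.25 and -0.12, the median of all elements being above 0 in each comparison.

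**Figure D3:**
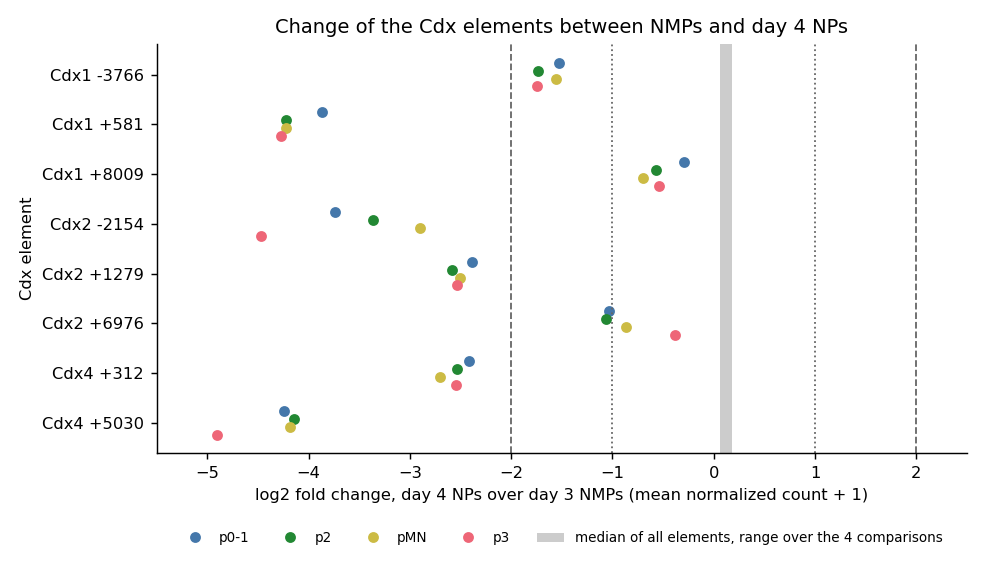
log2 fold change of the mean normalized count (pseudocount of 1) from NMPs at day 3 (3 samples) to each NP type at day 4 (5 or 6 samples), for the 8 Cdx elements. Dashed lines mark a 4-fold and dotted lines a 2-fold change, and the gray band is the range of the median over all elements, 0.06 to 0.18. In all 4 NP types 5 elements lie beyond the 4-fold line, and Cdx1 +8009 lies nearest to the gray band in p0-1, p2 and pMN and Cdx2 +6976 in p3.

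For context, elements of tailbud and NMP genes, trunk Hox genes and the other ParaHox genes were counted in the same 4 comparisons by the 4-fold rule. Between 8.85% and 10.1% of all elements fell by this rule and between 18.7% and 22.5% rose. Of 62 elements annotated to 11 tailbud and NMP genes, such as T, Wnt3a, Fgf8, Sp5 and Cyp26a1, between 14 and 17 fell and 4 or 5 rose, and their median log2 fold change was between -1.17 and -0.98. The largest decrease was at an element at -30699 bp from the TSS of Sp5, a transcription factor induced by Wnt signaling (mean 432 in NMPs and 21.8 at day 4), and the largest increase at an element annotated to T at 127740 bp from its TSS (mean 3.95 in NMPs and 81.5 at day 4). Of 20 elements of trunk Hox genes, which CDX factors are known to activate, between 0 and 2 fell and 0 rose, with medians between -0.99 and -0.88. The largest decrease there was at Hoxd9 (2935 bp from the TSS, mean 278 in NMPs and 62.2 at day 4). By the 2-fold rule 9 or 10 of these 20 fell, against 20.6% to 22.9% of all elements. Of 18 elements of the other ParaHox genes Gsx1, Gsx2 and Pdx1, between 2 and 3 fell and between 2 and 5 rose. By the 2-fold rule between 7 and 9 of these 18 fell and 5 rose. Of all elements 20.6% to 22.9% fell and 26.7% to 35.1% rose by that rule. The median log2 fold change of the 18 elements was between -0.77 and -0.38. Their largest increase was at an element at -12186 bp from the TSS of Gsx2 (mean 7.32 in NMPs and 105 at day 4) and their largest decrease at -14356 bp from that of Gsx1 (mean 54.9 and 6.79). 

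Within 100 kb of each Cdx TSS other elements were annotated to other genes, 23 near Cdx1, 15 near Cdx2 and 5 near Cdx4. Those near Cdx2 include elements of Gsx1 and Pdx1 that were also counted in the ParaHox list. Near Cdx1, 3 of these fell and 1 rose in all 4 comparisons by the 4-fold rule, near Cdx2 2 fell and 1 rose, and near Cdx4 1 fell and 0 rose. Of all elements 7.55% fell and 13.2% rose in all 4 comparisons. The largest change near Cdx1 was an increase at an element annotated to Mir7220, in an intron of Camk2a and 85385 bp beyond the Cdx1 TSS (mean 16.7 in NMPs and 272 at day 4). Near Cdx2 it was an increase at -11556 bp from the TSS of Pdx1 (mean 7.004 and 51.6), and near Cdx4 a decrease upstream of Tsx (mean 351 and 43.4). 

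Between day 4 and day 5 some of the Cdx elements fell further. The 4-fold rule was passed by Cdx2 -2154 alone, in p0-1, p2 and pMN, with 1.08%, 1.36% and 1.3% of all elements falling by that rule, and by 0 of the 8 elements in p3, where 0.805% fell. Cdx2 -2154 had 48.2 to 104 in pMN at day 4 and 4.51 to 7.99 at day 5, with no overlap, a log2 fold change of -3.38 (difference -2.35, SE 0.156, adjusted p = 2.2e-10 by limma). The change was -2.58 in p2, -2.42 in p0-1 and -1.59 in p3 (difference -1.01, SE 0.158, adjusted p = 0.00014 by limma). Without replicate 3 in both groups the p0-1 change was -1.81 (adjusted p = 0.00052), under 4-fold. At day 5 its mean was between 6.18 and 8.08 in the 4 types, 1.11% to 1.45% of the NMP mean.

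By the 2-fold rule 3 elements fell between day 4 and day 5 in p0-1, 3 in p2, 5 in pMN and 2 in p3, where 7.51%, 8.77%, 9.28% and 6.29% of all elements fell. Cdx4 +312 was among them in each type, with log2 fold changes from -1.49 in p2 to -1.001 in p0-1. Its mean over all NPs went from 31.2 ± 7.76 (SD, n = 23) at day 4 to 12.8 ± 4.74 (SD, n = 22) at day 5. In pMN Cdx2 +1279 (-1.03), Cdx2 +6976 (-1.08) and Cdx4 +5030 (-1.54) fell as well, as Cdx4 +5030 did in p2 (-1.27) and Cdx1 +581 in p0-1 (-1.11). Several of these calls did not hold without 1 of the replicates in both groups, with adjusted p values by limma then between 0.010 and 0.080. This was so for Cdx1 +581 in p0-1 without replicate 2 (adjusted p = 0.025) and for Cdx2 -2154 in p3 without replicate 3 (0.010). Cdx4 +312 was lost in p0-1 without replicate 1 (0.030), in pMN without replicate 1 (0.010) or 2 (0.013) and in p3 without replicate 1 or 3 (0.012 for both). Cdx4 +5030 was lost in p2 without replicate 1 (0.031) or 3 (0.016) and in pMN without replicate 3 (0.080).

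The intronic element Cdx1 +8009 went in the opposite direction. In p3 it had from 17.2 to 28.9 at day 4 and from 30.2 to 54.8 at day 5, without overlap, and rose by a log2 fold change of 1.06 (difference 0.80, SE 0.169, adjusted p = 0.0015 by limma), in a comparison where 12.6% of all elements rose by the 2-fold rule. This did not hold without replicate 1 (adjusted p = 0.030) or replicate 3 (adjusted p = 0.021). The log2 fold change was 0.95 in p0-1 (adjusted p = 0.014 by limma, groups overlapping), 0.68 in pMN (adjusted p = 0.0039, under 2-fold) and 0.42 in p2 (adjusted p = 0.15, groups overlapping). Between day 5 and day 6 no Cdx element passed in any NP type by either rule, while 4.33% of all elements in p0-1, 4.84% in p2, 4.73% in pMN and 5.43% in p3 passed the 2-fold rule. At an unadjusted p under 0.05 limma gave 3 of the 8 elements in p0-1, 1 in p2, 2 in pMN and 0 in p3, against 31.6% to 33.4% of all elements, and voom on the recovered reads also called 0 by the 4-fold rule.

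By day 6 the loci differed in how much accessibility was left. Relative to the NMP mean, the mean over the 19 NP samples was 0.857% at Cdx2 -2154, 1.45% at Cdx4 +5030, 2.49% at Cdx1 +581, 4.87% at Cdx4 +312, 7.71% at Cdx2 +1279 and 19.1% at Cdx1 -3766. Cdx2 +6976 kept 31.9%, a mean over p3 and the other NPs, and Cdx1 +8009 was at 113%. In 2 samples Cdx4 +5030 had 0 reads. Cdx2 +1279 still had a mean of 284 ± 48.1 (SD, n = 19), whereas Cdx4 +312 had 9.12 ± 3.92. The median over all elements and samples was 41.4. These counts are not corrected for width, which was 3339 bp, 1378 bp and a median of 883 bp respectively.

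**Figure D4:**
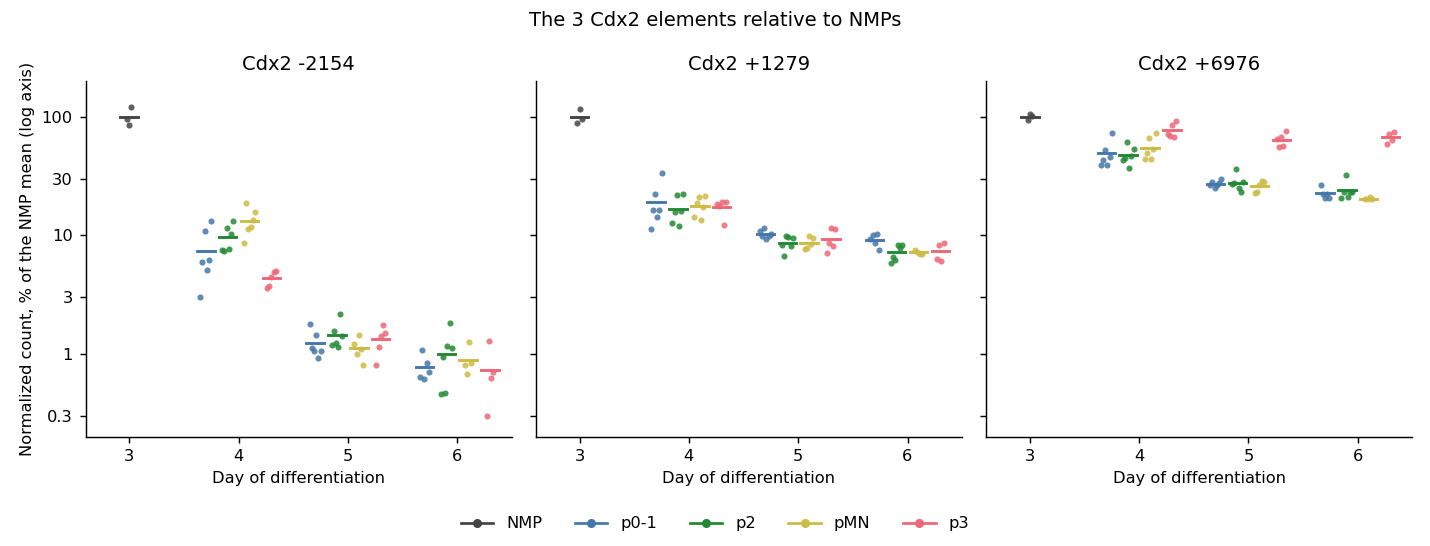
Normalized count of the 3 Cdx2 elements as a percentage of the mean of the 3 NMP samples (log axis), by day and cell type, with samples as points and their means as lines. Cdx2 -2154 and Cdx2 +1279 fall in all NP types, to 1.11% to 1.45% for Cdx2 -2154 at day 5. Cdx2 +6976 stays at 64.0% to 76.9% in p3 while the other NPs reach 20.4% to 23.9% at day 6.

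Comparisons between NP types of the same day ask whether the Cdx loci followed dorsoventral identity. By the 4-fold rule 0 of the 8 elements differed in any of the 6 pairs at day 4, 5 or 6. In the pairs p0-1 and p2, p0-1 and pMN, p0-1 and p3, p2 and pMN, p2 and p3, and pMN and p3, the share of all elements that differed by this rule was 0.0331%, 0.704%, 2.79%, 0.00896%, 2.47% and 1.97% at day 4. At day 5 it was 1.52%, 3.51%, 10.1%, 0.252%, 10.3% and 8.87% in the same order. At day 6 it was 1.56%, 3.69%, 15.3%, 0.813%, 14.5% and 13.4%. At an unadjusted p under 0.05 limma gave between 0 and 3 of the 8 elements per pair, against 14.2% to 38.9% of all elements at day 4, 23.6% to 55.8% at day 5 and 24.1% to 50.9% at day 6. Voom also called 0. By the 2-fold rule the differences were in Cdx2 +6976 and Cdx2 -2154, and each involved p3.

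Cdx2 +6976, at the 3′ end of Cdx2, stayed accessible in p3. At day 5 the p3 samples had 660, 666, 764, 796 and 899, and the 17 samples of p0-1, p2 and pMN had from 270.0 to 426, with no overlap. It was higher in p3 by a log2 fold change of 1.23 over p0-1, 1.201 over p2 and 1.31 over pMN (differences 1.19, 1.18 and 1.27 with SEs of 0.088, 0.111 and 0.102, adjusted p at most 4.9e-07 by limma), where 12.9%, 11.5% and 11.7% of all elements were higher in p3 by the 2-fold rule. At day 6 the p3 samples had 694, 752, 846 and 884 and the other 15 from 238 to 385. The log2 fold changes were 1.57 over p0-1, 1.49 over p2 and 1.72 over pMN (SEs of the differences 0.119, 0.132 and 0.107, adjusted p at most 1.5e-06), where 15.9%, 14.8% and 13.4% of elements were higher. At day 4 the element was higher in p3 by 0.49 to 0.68, under 2-fold (adjusted p between 0.00054 and 0.0091 by limma). The p3 samples at day 4 had 803 to 1093, and 2 of the 18 other samples lay within that range.

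Among NPs the p3 mean was highest at day 4. The mean in p3 was 908 ± 131 (SD, n = 5) at day 4, 757 ± 99.4 (n = 5) at day 5 and 794 ± 86.6 (n = 4) at day 6, and the change between days 4 and 5 did not pass the threshold. In pMN it was 648 ± 142 (n = 6), 306 ± 32.3 (n = 5) and 241 ± 4.55 (n = 4). The change between days 4 and 5 differed between p3 and pMN by 0.82 on the log2 scale of normalized counts (adjusted p = 0.0035 by a limma interaction term). Over all elements 8.27% had such a difference in either direction. It was not past the threshold when replicate 1, 2 or 3 was left out (adjusted p of 0.014, 0.019 and 0.017). For the change between days 5 and 6 no Cdx element passed (0.128% of all elements did), with 1 of the 8, Cdx2 +6976, at an unadjusted p under 0.05 (adjusted p = 0.18 by limma). Cdx2 +1279, over the TSS of the same gene, had 269 ± 49.4 (n = 4) in p3 and 288 ± 48.6 (n = 15) in the other NPs at day 6. The Foxa2 element, a marker of p3, was also highest in p3 among NPs. Its p3 means were 1298 ± 203 at day 4, 1336 ± 215 at day 5 and 1662 ± 486 at day 6. Within p3 its highest mean was at day 6, whereas that of Cdx2 +6976 was at day 4. No correlation between these elements was computed, and the part of Foxa2 was not tested.

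Cdx2 -2154 was lower in p3 than in p2 and pMN at day 4. At day 4 the p3 samples had 20.2, 20.9, 24.98, 27.3 and 27.7, below all 6 pMN samples (48.2 to 104) and all 6 p2 samples (40.7 to 74.2), and within the range of the 6 p0-1 samples (16.7 to 73.1). It was lower in p3 than in pMN by a log2 fold change of -1.56 (difference -1.23, SE 0.163, adjusted p = 2.0e-05 by limma) and lower than in p2 by -1.11 (adjusted p = 0.00083), where 8.53% and 7.52% of all elements were lower in p3 by the 2-fold rule. Without replicate 3 the p2 difference was -0.97 with an adjusted p of 0.022. At day 5 the means of the 4 types were between 6.18 and 8.08 and no difference passed. Its decrease between days 4 and 5 was smaller in p3 than in pMN by 1.78 on the log2 scale (adjusted p = 0.00015 by the interaction term), but without replicate 2 or 3 the adjusted p was 0.012 and 0.014.

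The effect of SAG concentration within an NP type was tested in 12 comparisons of 2 or 3 samples against 2 or 3, by the 2-fold rule. By limma 0 of the 8 Cdx elements passed in any of them, and of all elements 0.00269% passed in p0-1 at day 5 and 0% in the other 11. Of the 96 tests of Cdx elements 3 had an unadjusted p under 0.05, and per comparison 1.23% to 16.9% of all elements did. Voom called 0 as well. Of these, 2 concerned Cdx1 +8009 in p0-1. At day 5 its p0-1 samples had 47.4, 59.2 and 93.2 in 0 nM SAG and 28.5, 37.3 and 41.5 in 10 nM, without overlap (log2 fold change -0.88, SE of the difference 0.229, adjusted p = 0.22 by limma). Blocking on replicate number gave an adjusted p of 0.0041 by limma, at a change still under 2-fold, in a fit by which 1.78% of all elements passed the 2-fold rule. At day 6 they had 45.9 (replicate 2) and 122.9 (replicate 3) in 0 nM and 23.7, 19.8 and 48.4 (replicates 1, 2 and 3) in 10 nM, so the groups overlap and the value in 10 nM was lower in both replicates with a partner (log2 fold change -1.43, adjusted p = 0.21 by limma). With the replicate block the element passed the 2-fold rule at day 6 (adjusted p = 0.000135 by limma), as did 6.75% of all elements. At day 6 the median correlation was 0.40 between samples of the same number and -0.32 between samples of different numbers. The lowest between samples of the same number was 0.041, under the limit of 0.1 used here for pairing. The third was Cdx2 +1279 in p2 at day 6, with 288.6 to 307 in 10 nM and 214 to 240 in 100 nM (log2 fold change -0.39, adjusted p = 0.46).

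**Figure D5:**
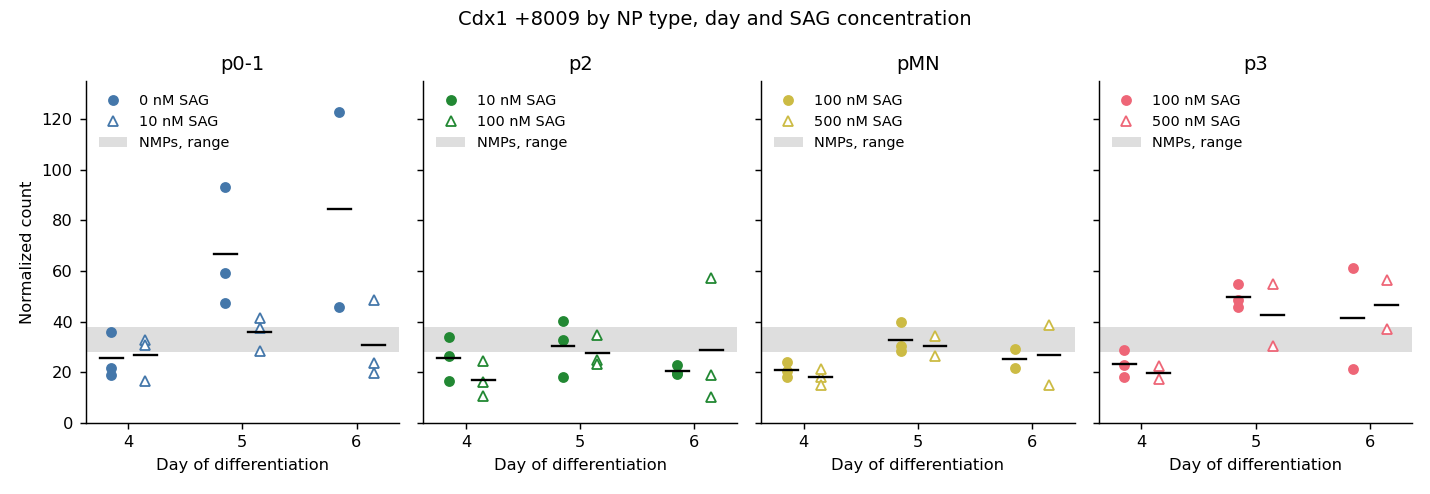
Normalized count of Cdx1 +8009 by NP type, day and SAG concentration, with samples as symbols (filled for the lower SAG concentration of each type, open for the higher), means as black lines and the range of the 3 NMP samples in gray. The highest values, 93.2 and 122.9, are p0-1 samples in 0 nM SAG at days 5 and 6, and samples of a condition at day 6 spread widely.

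The other 6 elements had similar profiles. Over the 25 condition means of the log2 values, Pearson's r between any pair of the elements other than Cdx1 +8009 and Cdx2 +6976 was between 0.893 and 0.975, and over the 24 NP conditions alone between 0.756 and 0.948. Cdx2 +6976 correlated with these 6 at 0.535 to 0.620 and Cdx1 +8009 at -0.371 to -0.058. These points share libraries and days, and the NMP condition alone sets much of the range. Such a pattern was common. Of 61342 candidate elements of other genes, 9.91% had r above 0.9 with Cdx1 +581 and 8.65% with Cdx4 +312, but only 0.329% with Cdx2 +6976. The elements most like Cdx1 +581 were annotated to Psmd12 (r = 0.992), Mettl4, Inf2, Src and Adgrg1, and those most like Cdx4 +312 to Wdtc1 (r = 0.984), Wfs1, Pla2g4d, Snhg11 and Tbl2. Those most like Cdx2 +6976 were annotated to Mylip (r = 0.980), Hbegf, Olfr156, Nanog and Pth2r (r = 0.970).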

How the data were processed

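CaTS-ATAC libraries of 67 samples were analysed. Reads were run by the authors through nf-core/atacseq on mm10. The authors called peaks with MACS, kept consensus elements found in at least 2 replicates, annotated them with HOMER, and the authors deposited variance-stabilized values made with DESeq2, which are on a log2 scale. The deposited HOMER table gives a signed distance to the nearest TSS in bp, handled as a score with no fixed range. Of 133549 annotated elements 111638 had values.

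The transformation was inverted here to normalized counts and reads (100% of values below 1000 reads came out whole). Comparisons used limma 3.58.1 in R 4.3.3 on the deposited log2 values with a variance trend, two-sided, adjusted by Benjamini-Hochberg over all 111638 elements. Fold changes are log2 ratios of mean normalized counts plus 1. Calls required a 4-fold change with adjusted p below 0.01 (2-fold between SAG concentrations, no fold limit for interactions). Every Cdx element is named. The members and lists were chosen with earlier results of these data known. The fits were tried on simulated counts for NMPs to p2 at day 4, p2 to p3 at day 5 and the SAG comparison of p0-1 at day 6. These used a 2-fold limit and samples drawn independently, so they do not cover correlation between samples of the same replicate number.

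Replicate numbers of the titles were taken to pair samples within day 5 only, where same-number deviations all correlated above 0.1 (lowest 0.103). Within day 6 the median of these correlations was higher (0.40, against 0.32 within day 5), but the lowest was 0.041. Within day 5 the block changed no call of a Cdx element. Within day 6 it called Cdx1 +8009 in p0-1 between SAG concentrations (log2 fold change -1.43, adjusted p = 0.000135 by limma), which the main fit did not. Alternatives were a replicate block, centering, a mean above 100, no trend, voom, 1 fit of all samples, a pseudocount of 10 and leaving out replicates. Standard errors come from the spread between the 2 to 6 samples of a group, at a depth of 9298160 to 29985325 reads per sample.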

Additional observations from a re-analysis of the deposited data

Results flagged for a closer look

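In 96 groups of 4 to 6 samples (12 of type and day for each element), 1 sample stood apart from its group in 6, and chance alone gives about 1 in 20. At Cdx1 +581 the lowest pMN sample at day 6 (100 nM SAG, replicate 2) had 43.9 normalized counts and the next 61.9. At Cdx1 +8009 the highest p0-1 sample at day 6 (0 nM SAG, replicate 3) had 122.9 and the next 48.4, and the highest p2 sample at day 6 (100 nM SAG, replicate 3) had 57.2 and the next 23.0. At Cdx2 +6976 the same p2 sample had 384.5 and the next 274.5. At Cdx2 +1279 the lowest p3 sample at day 4 (500 nM SAG, replicate 1) had 453.5 and the next 644.6. At Cdx4 +312 the lowest p3 sample at day 5 (500 nM SAG, replicate 3) had 8.31 and the next 12.7.

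The change between days 4 and 5 differed between p3 and pMN at Cdx2 +6976, by 0.82 on the log2 scale, and at Cdx2 -2154, by 1.78, each by a limma interaction term. The first decreased less in p3 after a higher level at day 4, and the second decreased less in p3 after a lower one. Of all elements 8.27% had such a difference in either direction, and neither held in every fit without a replicate. At Cdx2 -2154 both types were near the floor at day 5 (means of 7.36 in p3 and 6.18 in pMN), so the difference mostly reflects day 4 (24.2 and 73.6).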

How the results depend on the processing

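Of the counts of Cdx elements called, that from NMPs to day 4 was 5 in every alternative except a mean above 100 (3) and a 2-fold limit (7). From day 4 to day 5 it was 1, with 7 at a 2-fold limit and 0 with a mean above 100. Between types it was 0 on each day, and 1 on each day at a 2-fold limit. Between SAG concentrations it was 0, and 1 with a replicate block under either numbering, where Cdx1 +8009 in p0-1 at day 6 was called (log2 fold change -1.43, adjusted p = 0.000135 with the titles' numbers and 0.000935 with the descriptions' by limma), along with 6.75% and 4.2% of all elements. This block is a hint, as the lowest correlation between same-number samples within day 6 (0.041) missed the limit of 0.1 used here for pairing. The median there was 0.40 for the same and -0.32 for different numbers, further apart than within day 5 (0.32 and -0.18). Of changes that differed between p3 and pMN there were 2, with 1 for a mean above 100 and 0 to 1 without each replicate. The mean filter removes low elements by construction, and the cause of the other changes was not tested. Leaving out replicates left the remaining counts as they were.

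Single elements gave 675 values under alternatives, compared by direction and by adjusted p below 0.01, without the fold limit of a call. Of these, 648 kept direction and the same side of that p, 19 no longer had an adjusted p below 0.01, 8 newly had one and 0 reversed. The mean filter removed another 26. These 8 gains in adjusted p by limma were at Cdx1 +8009 and Cdx2 +6976. At Cdx1 +8009 they were from NMPs to p2 (centered, 0.0054) and pMN (0.00054 to 0.0078 with a block, centering or no trend). At Cdx2 +6976 they were from NMPs to p3 (0.0053 to 0.0089 with a block, centering or the mean filter). Depth limits the low elements most. Cdx4 +5030 had a mean of 3.08 normalized counts at day 6.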

Other observations

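At day 6 Cdx1 +8009 was higher in replicate 3 than in replicate 2 in 8 of 8 conditions, and 10.8% of all elements were higher in replicate 3 in all 8. The replicate numbers are those of the titles, and 15 samples have another number in their description.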
